A study of Mus musculus with 10 samples.

Results

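The RNA of 10 mouse genes that encode histone variants or the chaperones that place histones on DNA was followed through induced reprogramming of fibroblasts and in an embryonic stem cell line. The 10 genes were chosen by name (H2afy, H2afy2, H2afz, H2afx, H3f3a, H3f3b, H1f0, Chaf1a, Chaf1b and Asf1a). They were found among the 45706 genes of the deposited tables, each under a single gene identifier, and all 10 passed the filter on low counts that left 20165 genes for testing. Member genes received between 445 and 31384 estimated reads in a library, out of 29585876 to 38275024 in all.

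Polyadenylated RNA was sequenced at 5 stages, with 2 libraries each. Mouse embryonic fibroblasts (MEF) of strain C57BL/6 x 129 carried an OKSM cassette (Oct4, Klf4, Sox2 and Myc) at Col1a1 and the doxycycline-responsive activator M2rtTA at ROSA26, and were grown in fibroblast medium without the drug. Cells at day 3, day 6 and day 9 had the same genotype, and were kept in ESC medium with 1 µg/ml doxycycline and 50 µg/ml ascorbic acid. Day 3 cells were unsorted. Those of days 6 and 9 had been selected on the surface antigen SSEA1, so day 6 differs from day 3 in time and in sorting, which cannot be told apart. The ESC reference was the V6.5 line, whose label names no cassette. It was unsorted and was grown in serum and LIF on irradiated feeder cells. The design text calls the libraries biological replicates, but nothing used here says which cultures or animals they came from, and p-values measure the spread between these libraries.

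DNA is wound on nucleosomes of histones H2A, H2B, H3 and H4, and most of these proteins are made in S phase for replication. Most histone variants are made through the cell cycle from polyadenylated transcripts and replace the canonical form at particular places. MacroH2A is a marker of silenced chromatin known as a barrier to reprogramming, H2A.Z sits at promoters and enhancers, H2A.X is phosphorylated around DNA breaks, H3.3 enters active genes outside S phase, and H1.0 is the linker histone that accumulates in differentiated cells. CAF-1 deposits newly made H3 and H4 behind the replication fork, receiving them from ASF1, and loss of CAF-1 is known to ease the passage of fibroblasts to pluripotency.

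Within a gene, values are given as CPM, the reads of the gene relative to the library's total on edgeR's TMM scale. Between genes they are given as TPM, the deposited measure that is also divided by transcript length. A gene was said to pass the test when its p-value in edgeR's quasi-likelihood test, adjusted by Benjamini-Hochberg over all tested genes, was under 0.05, and was called when it also differed by at least 2-fold. The log2 fold changes below are edgeR's, with their standard error (SE).

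The replication chaperones Chaf1a, Chaf1b and Asf1a and the H2A.Z gene H2afz rose 1.68 to 2.6-fold by day 3. At that step the H3.3 gene H3f3a rose 1.95-fold, and its partner H3f3b, summed over all transcripts, fell 1.23-fold. The macroH2A gene H2afy and the H2A.X gene H2afx rose from day 3 to day 6 (1.78 and 1.7-fold), and H2afy changed its main coding transcript over the same interval. ESC differed from day 9 in a 3.33-fold lower level of the linker histone gene H1f0 and in lower levels of both macroH2A genes.

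At day 3 against MEF, 2 of the 10 genes were called higher (H2afz and Chaf1b) and none lower, where 29.1% of all tested genes were called in either direction. DESeq2 also called none of the 10 lower, and 2 passed edgeR's test with a smaller decrease, as at an unadjusted p under 0.05. Without regard to size 7 of the 10 passed at day 3, beside 64.9% of all genes. At day 6 against day 3 none was called (19.5% of all genes), although 7 passed the test with smaller increases (8 at an unadjusted p under 0.05), where 56.5% of all genes passed. At day 9 against day 6 none was called (7.87% of all genes), with 3 passing upward and 2 downward (4 and 3 at an unadjusted p under 0.05), where 34.6% of all genes passed. DESeq2 called none in these comparisons either. In ESC against day 9, 3 were called lower in edgeR (H1f0, H2afy and H2afy2), where 32.9% of all genes were called. DESeq2 called 2 lower, with H2afy2 at the limit (-1), and neither tool called any of the 10 higher. At any size 2 passed upward and 7 downward, beside 69.6% of all genes. Against MEF, ESC had 5 genes called higher and 1 lower (46.1% of all genes), and 9 that passed at any size (76.6%). Day 9 had 6 called higher and none lower (43.9% of all genes). DESeq2 called 4 higher and none lower at day 9 against MEF, and 8 passed edgeR's test upward and 2 downward, beside 74.9% of all genes. Comparisons that share a stage share its libraries. The median log2 fold change of the 10 genes was 0.41, 0.36, 0 and -0.38 over the 4 successive steps, beside 0.08, 0.03, 0 and 0 for all tested genes.

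**Figure D1:**
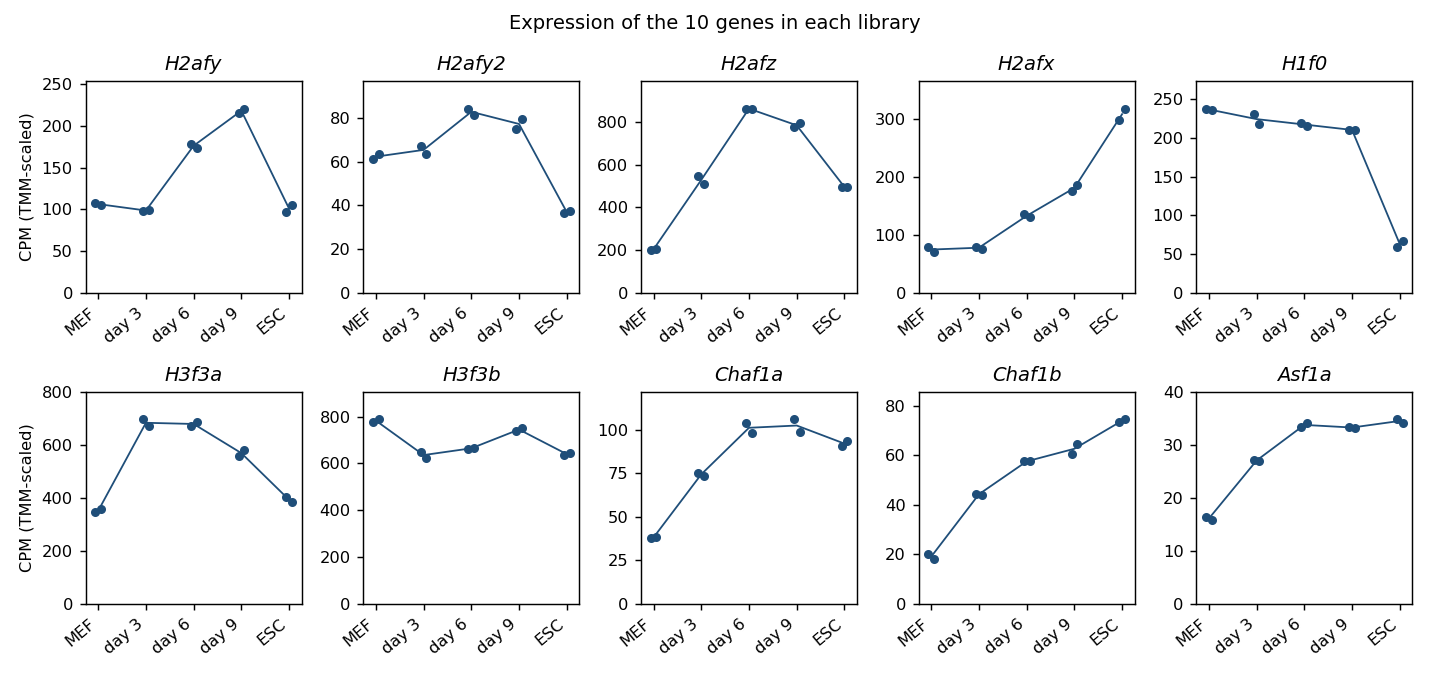
Each panel plots 1 gene, with the stage on the x axis and CPM on the TMM scale on the y axis, which starts at 0. Points are the 2 libraries of a stage and the line joins their means. Chaf1a, Chaf1b and Asf1a were lowest in MEF, and H1f0 and H2afy2 were lowest in ESC.

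H2afy encodes macroH2A1, an H2A variant with a large globular macro domain, from chromosome 13 (GRCm38, 56073619 to 56136361, minus strand). The gene has a pair of mutually exclusive coding exons, and the 2 proteins made from them are known as macroH2A1.2 and macroH2A1.1, of which macroH2A1.1 binds ADP-ribose. The transcript named H2afy-001 holds a 100-base exon 6 at chr13:56089758-56089857 and encodes 372 residues (macroH2A1.2), and H2afy-002 holds a 91-base exon 6 at chr13:56088252-56088342 and encodes 369 residues (macroH2A1.1). The exons are shown because the main form of the gene changed from the shorter to the longer. They are written 5′ to 3′ on the gene's strand from the GENCODE M21 transcripts, with capitals at bases that differ or have no partner in their alignment, in which 48% of 100 columns were identical.
H2afy-001: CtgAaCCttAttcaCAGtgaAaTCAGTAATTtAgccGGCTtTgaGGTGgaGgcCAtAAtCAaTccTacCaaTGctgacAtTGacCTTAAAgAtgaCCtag
H2afy-002: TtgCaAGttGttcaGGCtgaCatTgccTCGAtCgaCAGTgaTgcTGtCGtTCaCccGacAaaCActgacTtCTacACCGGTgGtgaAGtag

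The transcript with the 100-base exon was the minor form in MEF and at day 3, and the major form in ESC and on days 6 and 9. Of the reads assigned to the pair, H2afy-001 took 22.0% and 30.2% in the 2 MEF libraries and 19.8% and 23.8% at day 3. It took 78.8% and 82.0% at day 6, 92.9% and 90.0% at day 9, and 76.5% and 79.4% in ESC. No library of the first 2 stages overlapped any library of the last 3.

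From day 3 to day 6 the levels of the transcripts moved in opposite directions. H2afy-001 was at 15.7 and 21.8 CPM in MEF, 13.1 and 15.9 at day 3, 92.5 and 95.6 at day 6, 141 and 134 at day 9, and 49.8 and 54.4 in ESC. H2afy-002 was at 55.8 and 50.3 CPM in MEF, 53.1 and 51.0 at day 3, 24.8 and 21 at day 6, 10.8 and 14.9 at day 9, and 15.3 and 14.1 in ESC. The form that led in MEF was lower in every library of day 6, day 9 and ESC, and its alternative peaked at day 9.

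A fit of edgeR over 56719 transcripts, chosen after these shares had been seen, gave the change of each form. Between day 3 and day 6, H2afy-001 rose 6.07-fold (log2 fold change 2.6, SE 0.16, adjusted p = 5.9e-05) and H2afy-002 fell 2.43-fold (log2 fold change -1.28, SE 0.16, adjusted p = 0.0016), where 8.19% of all transcripts were called. At day 9 against MEF the log2 fold changes were 2.72 (adjusted p = 1.4e-05 in edgeR) and -2.19 (adjusted p = 4.4e-05), with 27.4% of transcripts called. From day 6 to day 9 the values were 0.56 (adjusted p = 0.11 in edgeR) and -0.81 (adjusted p = 0.034), where 1.83% of transcripts were called. At day 3 against MEF neither passed, at -0.45 (adjusted p = 0.083 in edgeR) and -0.1 (adjusted p = 0.7), where 16.3% were called. From day 9 to ESC, H2afy-001 fell (log2 fold change -1.28, adjusted p = 0.00092 in edgeR), with 15.9% of transcripts called, and H2afy-002 did not pass (0.3, adjusted p = 0.22).

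The estimates rest on single reads of 50 bases assigned among overlapping transcripts, and the files hold no error of that assignment. The annotated H2afy-001 also begins 101 bases further upstream, so the share depends on the first exon as well as on exon 6. The pair held 65.0% to 70.0% of the reads of the gene in every library. With the shorter transcript H2afy-007, which also holds the 100-base exon, that exon's transcripts took 29.3% to 38.4% in MEF and day 3 libraries and 79.2% to 93.6% in the others.

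**Figure D2:**
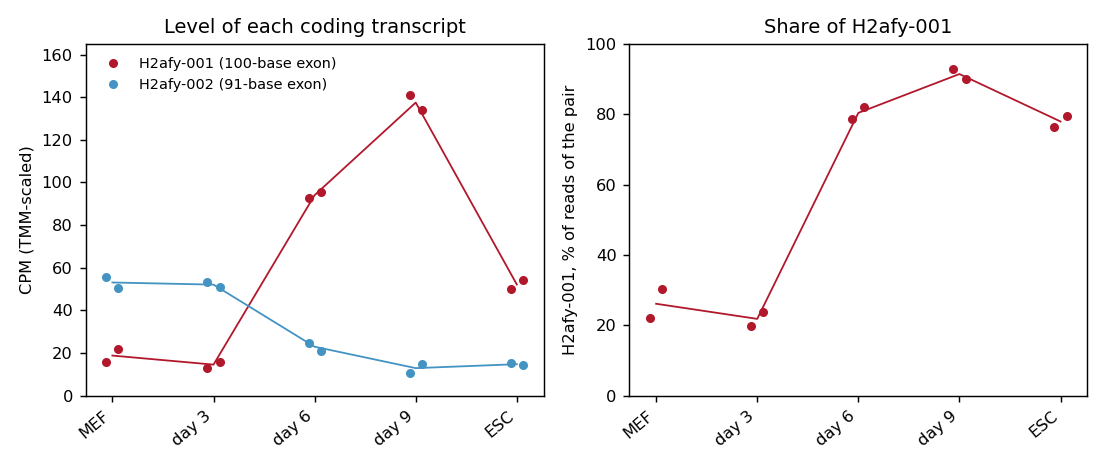
The left panel plots CPM of H2afy-001 and H2afy-002 at each stage, and the right panel the percentage of the pair's reads on H2afy-001. Points are libraries and lines join the means, which for the share were 26.1% in MEF, 78.0% in ESC, and 21.8%, 80.4% and 91.5% at days 3, 6 and 9.

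The gene total of H2afy did not show this exchange between MEF and ESC. H2afy was at 108 and 105 CPM in MEF, 97.7 and 99.8 at day 3, 179 and 174 at day 6, 216 and 221 at day 9, and 96.9 and 105 in ESC. The libraries of ESC overlapped those of MEF, and the log2 fold change was -0.07 (SE 0.04, adjusted p = 0.13 in edgeR), against 2.7-fold more H2afy-001 (adjusted p = 0.00035) and 3.72-fold less H2afy-002 (adjusted p = 9.1e-05), where 26.5% of transcripts were called. For the gene total DESeq2 gave -0.15 (adjusted p = 0.0093), and scaling by library size alone 0.27 (adjusted p = 4.3e-05), so its sign depends on the scaling. The total rose 1.78-fold from day 3 to day 6 (log2 fold change 0.84, SE 0.04, adjusted p = 4.1e-10 in edgeR). From day 6 to day 9 it rose 1.24-fold (0.31, SE 0.04, adjusted p = 2.6e-05 in edgeR), but did not pass in limma on log2(TPM + 1) (0.17, adjusted p = 0.12). The total fell 2.16-fold from day 9 to ESC (log2 fold change -1.11, SE 0.04, adjusted p = 8.9e-12 in edgeR). At day 3 against MEF the value was -0.11 (adjusted p = 0.035 in edgeR), and 0.1 (adjusted p = 0.059) when scaled by library size.

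H2afy2 on chromosome 10 (61738665 to 61784147, minus strand) encodes macroH2A2, the second macroH2A protein. It was at 61.2 and 63.3 CPM in MEF, 67.1 and 63.6 at day 3, 84.2 and 81.3 at day 6, 75 and 79.4 at day 9, and 36.6 and 37.2 in ESC. ESC libraries were the lowest, and day 6 and day 9 the highest. Its increase from day 3 to day 6 was 1.27-fold (log2 fold change 0.34, SE 0.04, adjusted p = 1.3e-05 in edgeR), and its decrease from day 9 to ESC was 2.09-fold (-1.07, SE 0.05, adjusted p = 6.8e-11). The latter lies at the 2-fold limit: limma on log2(TPM + 1) gave -0.85 for H2afy2 and -0.93 for H2afy, and left H1f0 alone called lower.

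Per length and over all its transcripts, H2afy exceeded H2afy2 in every library. The ratio of their TPM was 3.66 and 3.25 in MEF, 2.96 and 3.19 at day 3, 4.4 and 4.35 at day 6, 5.61 and 5.63 at day 9, and 5.3 and 5.71 in ESC. Day 9 and ESC libraries overlapped at the top of this order, and both lay above day 6. The 2 genes differed by less in reads, at 1.51 to 2.83 for the stage means, which are not divided by transcript length. Transcripts of H2afy without an annotated protein, such as H2afy-007, held 61.4% to 66.1% of its TPM. Over protein-coding transcripts only, an alternative chosen after seeing the data, the mean ratio was 1.24 in MEF, 1.94 in ESC, and 1.09, 1.52 and 2.08 at days 3, 6 and 9, so the genes were close in MEF and at day 3 (1.06 to 1.26 in single libraries).

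H2afz encodes H2A.Z, the variant exchanged into nucleosomes at gene starts by the SRCAP and EP400 complexes, from chromosome 3 (137864487 to 137866922, plus strand). It was at 202 and 205 CPM in MEF, 546 and 511 at day 3, 862 and 862 at day 6, 775 and 793 at day 9, and 494 and 497 in ESC. No 2 stages overlapped, MEF was the lowest and day 6 the highest, 4.25-fold above MEF. H2afz rose 2.6-fold at day 3 (log2 fold change 1.38, SE 0.04, adjusted p = 1.5e-13 in edgeR) and 1.63-fold more by day 6 (0.71, SE 0.03, adjusted p = 2.8e-10). ESC lay 1.58-fold below day 9 (log2 fold change -0.66, SE 0.03, adjusted p = 3.4e-10 in edgeR) and 2.44-fold above MEF (1.28, SE 0.04, adjusted p = 1.7e-13). The value of -0.14 at day 9 against day 6 (adjusted p = 0.0055 in edgeR) was -0.12 (adjusted p = 0.059) without the first day 9 library. A pseudogene, Gm8203, is identical to an H2afz transcript over 387 bases, and 28.7% to 32.6% of the reads of H2afz and its copies were assigned to copies. With those reads added to H2afz, its log2 fold change at day 3 was 1.32.

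H2afx encodes H2A.X from chromosome 9 (44334694 to 44336077, plus strand). The gene is known to be made also as a replication-dependent transcript without a poly(A) tail, which poly(A) libraries do not capture, so the values are of its polyadenylated RNA. It was at 78.1 and 70.8 CPM in MEF, 79.1 and 76.2 at day 3, 135 and 130 at day 6, 176 and 185 at day 9, and 298 and 317 in ESC. Its mean, like that of Chaf1b, did not fall at any step of this order. The MEF and day 3 libraries overlapped (log2 fold change 0.06, SE 0.05, adjusted p = 0.3 in edgeR, and 0.27, adjusted p = 0.00022, scaled by library size). It rose 1.7-fold from day 3 to day 6 (log2 fold change 0.77, SE 0.05, adjusted p = 6.7e-09 in edgeR), 1.36-fold from day 6 to day 9 (0.44, SE 0.05, adjusted p = 3.9e-06) and 1.71-fold from day 9 to ESC (0.77, SE 0.05, adjusted p = 1.6e-09). ESC held 4.14-fold more H2afx than MEF (log2 fold change 2.05, SE 0.05, adjusted p = 3.9e-14 in edgeR), the largest increase among the 10 in that comparison. A near copy took 2.85% to 6.29% of its reads.

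H3f3a on chromosome 1 (180800832 to 180813943, minus strand) and H3f3b on chromosome 11 (116021912 to 116027962, minus strand) encode the same protein, H3.3. Their coding sequences, each of 408 bases without the stop codon, differ at 95 bases and at 0 of 136 residues. H3f3a was at 345 and 358 CPM in MEF, 698 and 672 at day 3, 674 and 687 at day 6, 560 and 580 at day 9, and 402 and 384 in ESC. H3f3b was at 778 and 789 CPM in MEF, 648 and 624 at day 3, 662 and 668 at day 6, 740 and 751 at day 9, and 635 and 645 in ESC. H3f3a thus peaked at day 3 and day 6, when H3f3b, summed over all transcripts, was near its lowest. This did not hold for the coding transcript H3f3b-201. Its mean share of H3f3b reads was 83.8% (day 3) and 83.2% (day 6), but 75.5% (ESC). Gene totals of ESC were no more than slightly above those of either day, so H3f3b-201 was lower in ESC than on both days.

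Summed over all transcripts, the 2 genes moved in opposite directions at day 3. The coding transcript H3f3b-201 went from 72.6% of H3f3b reads in MEF to 83.8% at day 3 (means). That transcript thus fell by less than the gene total. H3f3a rose 1.95-fold (log2 fold change 0.96, SE 0.04, adjusted p = 8.7e-12 in edgeR), just under the 2-fold limit, and H3f3b fell 1.23-fold (-0.3, SE 0.03, adjusted p = 5e-07), with -0.5 to -0.1 over all alternatives. H3f3a did not pass between day 3 and day 6 (log2 fold change -0.01, SE 0.03, adjusted p = 0.84 in edgeR), and the libraries overlapped. It then fell 1.19-fold to day 9 (-0.26, SE 0.03, adjusted p = 5.1e-05 in edgeR) and 1.45-fold from day 9 to ESC (-0.54, SE 0.04, adjusted p = 6.1e-09). The later values of H3f3b were small, and 3 changed sign with the scale. Day 9 against MEF was -0.07 (adjusted p = 0.04 in edgeR) and 0.22 (adjusted p = 3.6e-06) by library size. ESC against MEF was -0.29 (adjusted p = 4.6e-07 in edgeR) and 0.05 (adjusted p = 0.12) by library size. ESC against day 9 was -0.22 (adjusted p = 1.3e-05 in edgeR) and 0.02 (adjusted p = 0.6) in limma on TPM.

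Per length, the ratio of H3f3a to H3f3b was lowest in MEF, but which gene led there depended on the transcripts summed. H3f3a was at 237 and 246 TPM in MEF, 457 and 447 at day 3, 453 and 459 at day 6, 354 and 352 at day 9, and 288 and 284 in ESC. H3f3b was at 320 and 313, 220 and 226, 229 and 236, 261 and 250, and 257 and 262 TPM in the same order. Over all transcripts the ratio of H3f3a to H3f3b was 0.741 and 0.787 in MEF, 2.08 and 1.97 at day 3, 1.98 and 1.94 at day 6, 1.36 and 1.41 at day 9, and 1.12 and 1.08 in ESC. By this sum MEF libraries lay below 1 and all others above it. Transcripts without an annotated protein, H3f3b-002 and H3f3b-003, held 53.4% and 52.1% of the TPM of H3f3b in MEF and 34.7% to 49.5% in other libraries. Over protein-coding transcripts only, an alternative chosen after seeing the data, the ratio was 1.59 and 1.64 in MEF and 2.11 to 3.18 in other libraries, above 1 in all 10. In reads, which are not per length, the mean ratio was 0.449 in MEF, 0.614 in ESC, and 1.08, 1.02 and 0.764 at days 3, 6 and 9, so MEF remained the lowest but day 9 and ESC also lay below 1. Pseudogenes took 16.8% to 19.2% of the reads of H3f3a and its 11 copies, mostly H3f3c, and 0.0605% to 0.303% of those of H3f3b, and adding them left the day 3 value of H3f3a at 0.96.

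**Figure D3:**
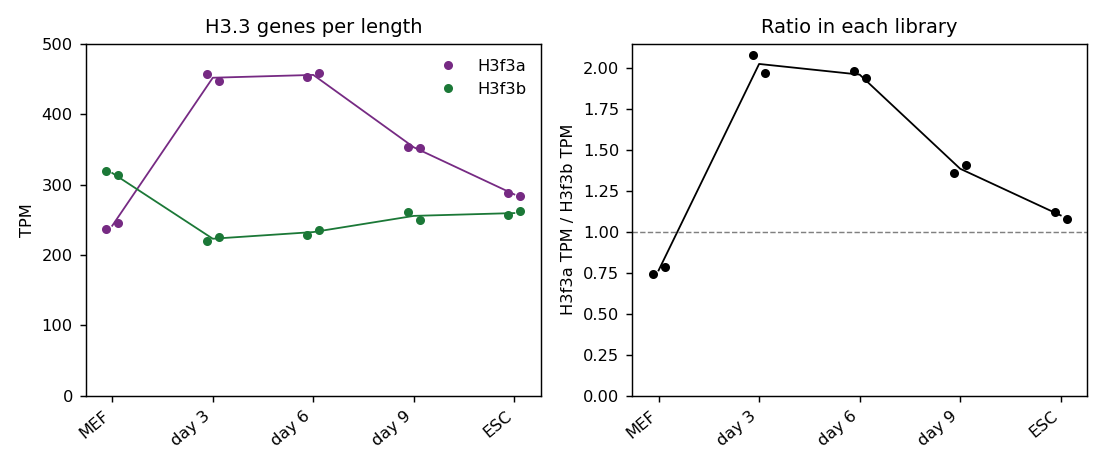
The left panel plots TPM of H3f3a and H3f3b at each stage and the right panel their ratio in each library, both over all transcripts of each gene, with a dashed line at 1. Points are libraries and lines join the means; the mean ratio was 0.764 in MEF, 1.1 in ESC, and 2.02, 1.96 and 1.39 at days 3, 6 and 9.

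The promoters of the 2 H3.3 genes are shown because the genes encode 1 protein and differed in RNA over the stages. Each is the 250 bases before the RefSeq start (GRCm38.p6), written 5′ to 3′ on the gene's minus strand, from chr1:180813606-180813855 and chr11:116024505-116024754, with capitals at CCAAT or its complement ATTGG.
H3f3a: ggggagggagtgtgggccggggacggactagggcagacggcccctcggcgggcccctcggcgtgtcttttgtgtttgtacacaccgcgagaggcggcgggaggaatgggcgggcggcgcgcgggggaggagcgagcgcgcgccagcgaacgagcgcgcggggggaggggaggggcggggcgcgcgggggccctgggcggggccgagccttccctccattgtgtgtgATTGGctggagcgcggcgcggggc
H3f3b: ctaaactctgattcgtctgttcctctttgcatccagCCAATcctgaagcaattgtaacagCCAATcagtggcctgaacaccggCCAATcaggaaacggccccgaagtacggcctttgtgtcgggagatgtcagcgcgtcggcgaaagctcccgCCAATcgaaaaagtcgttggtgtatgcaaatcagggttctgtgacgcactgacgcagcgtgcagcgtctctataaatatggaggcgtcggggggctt
The window of H3f3b holds CCAAT 4 times and that of H3f3a 1 time, and their GC contents are 54% and 77.2%. Of 32851 RefSeq promoter windows of this length, 33.8% hold CCAAT on either strand and 0.84% hold it 4 or more times. Windows were matched for 9 of the 10 genes, and 5 of the 9 hold CCAAT: H3f3a, H3f3b, H2afz (2 times), Chaf1a and Asf1a (1 time each). None of the 9 holds the E2F words TTTCCCGC, TTTGGCGC, TTTCGCGC or TTTGCCGC on either strand, which 1.86% of all windows hold. Only these exact words were looked for, so the windows may hold other forms of the E2F site. No E2F word contains CCAAT or ATTGG, and a match or its absence describes the letters of the window only.

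H1f0 encodes the linker histone H1.0, which binds the DNA between nucleosomes, from chromosome 15 (79028450 to 79030504, plus strand). It was at 238 and 236 CPM in MEF, 231 and 218 at day 3, 220 and 215 at day 6, 210 and 211 at day 9, and 59.2 and 66.9 in ESC. The 8 libraries of the fibroblasts and the reprogramming days lay in a narrow range, and the ESC libraries lay far below it. None of the 3 successive steps from MEF to day 9 passed (adjusted p = 0.14, 0.43 and 0.49 in edgeR), although the first passed in DESeq2 (-0.2, adjusted p = 0.00016) and, with the other sign, by library size (0.13, adjusted p = 0.017). The decrease from day 9 to ESC was 3.33-fold (log2 fold change -1.74, SE 0.05, adjusted p = 4.6e-13 in edgeR), and H1f0 was called lower there under every alternative. Day 9 against MEF gave -0.17 (adjusted p = 0.0036 in edgeR) and 0.12 (adjusted p = 0.019) by library size.

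Chaf1a on chromosome 17 (56040439 to 56072289, plus strand) and Chaf1b on chromosome 16 (93883901 to 93906115, plus strand) encode the p150 and p60 subunits of CAF-1. Chaf1a was at 37.8 and 38.2 CPM in MEF, 75.3 and 73.4 at day 3, 104 and 98.3 at day 6, 106 and 98.9 at day 9, and 90.6 and 93.5 in ESC. Chaf1b was at 20 and 17.9 CPM in MEF, 44.3 and 44.1 at day 3, 57.5 and 57.5 at day 6, 60.5 and 64.7 at day 9, and 73.4 and 74.5 in ESC. MEF was lowest for both subunits, without overlap with any other stage.

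The largest step of both subunits was the one to day 3. Chaf1a rose 1.96-fold (log2 fold change 0.97, SE 0.05, adjusted p = 3.3e-10 in edgeR) and Chaf1b 2.34-fold (1.23, SE 0.06, adjusted p = 1.5e-10). Chaf1a lay just under the 2-fold limit and was called with a length offset (log2 fold change 1) and by library size (1.17), under which H3f3a (1.17) was called too. From day 3 to day 6 the increases were 1.36-fold for Chaf1a (log2 fold change 0.45, SE 0.04, adjusted p = 7.9e-07 in edgeR) and 1.3-fold for Chaf1b (0.38, SE 0.05, adjusted p = 1.5e-05). Neither passed between day 6 and day 9 (0.01, adjusted p = 0.87, and 0.12, adjusted p = 0.066 in edgeR). The subunits parted at the last step: in ESC against day 9, Chaf1b rose 1.18-fold (log2 fold change 0.24, SE 0.05, adjusted p = 0.00045 in edgeR) and Chaf1a was at -0.15 (adjusted p = 0.0066). The Chaf1a value was -0.1 without the first day 9 library and -0.13 without the first ESC library. It did not pass in DESeq2 (-0.09, adjusted p = 0.24) or in limma on log2(TPM + 1) (0, adjusted p = 0.98). The difference between the subunits was not tested. Against MEF, ESC held 2.42-fold more Chaf1a and 3.92-fold more Chaf1b (log2 fold changes 1.28 and 1.97, adjusted p = 6.4e-12 and 2.4e-13 in edgeR).

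Asf1a, the chaperone that hands H3 and H4 to CAF-1 and to the HIRA complex, lies on chromosome 10 (53596757 to 53609225, plus strand). It was at 16.4 and 15.8 CPM in MEF, 27.2 and 27 at day 3, 33.5 and 34.2 at day 6, 33.4 and 33.3 at day 9, and 34.9 and 34.3 in ESC. It was the least abundant of the 10 per length, at 3.82 ± 0.165 TPM (SD, n = 2) in MEF and 8.68 ± 0.22 in ESC. Asf1a rose 1.68-fold at day 3 (log2 fold change 0.75, SE 0.05, adjusted p = 1.7e-08 in edgeR) and 1.25-fold from day 3 to day 6 (0.32, SE 0.05, adjusted p = 5.4e-05). Day 9, day 6 and ESC, neighbours in the order of levels, did not pass as neighbours (adjusted p = 0.79 and 0.54 in edgeR). For Asf1a, ESC against day 9 was 0.06 (adjusted p = 0.31 in edgeR), but passed in limma on log2(TPM + 1) (0.18, adjusted p = 0.015). Its increase of 2.07-fold at day 9 against MEF (log2 fold change 1.05, SE 0.05) was under 2-fold in DESeq2 (0.91), as was that of H2afy (1.04 and 0.89).

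Genes of replication and mitosis rose with the chaperones. Of 24 genes of S phase, all 24 passed the test upward at day 3 and 15 were called higher, where 64.9% of all genes passed in either direction and 14.6% were called higher. Their median log2 fold change was 1.08, beside 0.97 for Chaf1a, 1.23 for Chaf1b and 0.75 for Asf1a. Summed over the list, S phase genes were at 1260 CPM in both MEF libraries, 3040 and 2980 at day 3, 3860 and 3810 at day 6, 3760 and 3790 at day 9, and 4170 in both ESC libraries. A list of 10 genes of G2 and mitosis stood at 1150, 2360, 2540, 2490 and 2830 CPM as stage means. No marker of either list was at 0 at any stage, and their part in the values of Chaf1a, Chaf1b, Asf1a and H2afz was not tested.

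**Figure D4:**
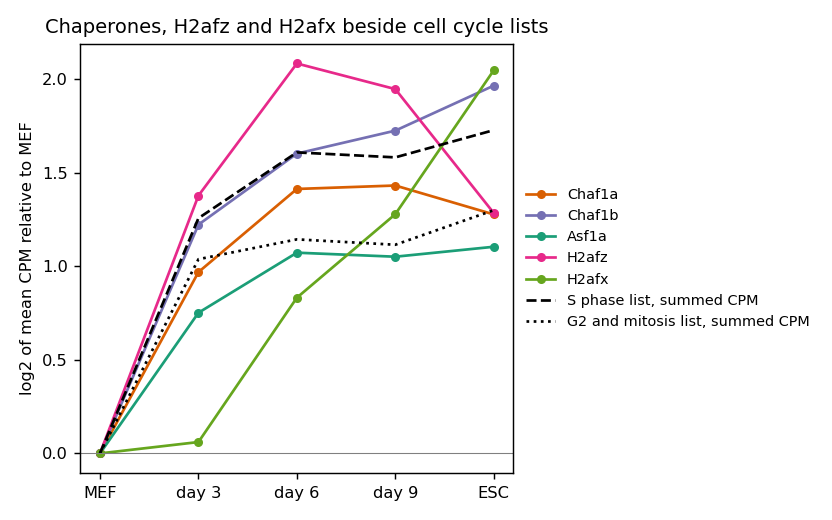
The y axis is the log2 of the mean CPM of a stage relative to MEF, over 2 libraries, and the x axis is the stage. Coloured lines are 5 member genes and black lines the summed CPM of the S phase list (dashed) and the G2 and mitosis list (dotted). Chaf1a, Chaf1b, Asf1a and H2afz share the increase of both lists at day 3, and H2afx lies near 0 there.

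Over the 10 libraries the chaperones tracked each other, with Pearson's r of 0.99 for Asf1a with Chaf1a, 0.99 for Asf1a with Chaf1b and 0.96 for Chaf1a with Chaf1b. H2afz followed Chaf1a at 0.96. H1f0 went with H2afy2 (0.9) and against H2afx (-0.82). These describe 5 stages measured in pairs, and points of a stage share its conditions. Among the 9561 genes compared, those most like Asf1a were Parp1, Mcm7 and Pole (r of 0.999 each), those most like Chaf1b were Lmnb1 (0.998), Emg1 (0.997) and Mcm10 (0.996), and those most like Chaf1a were Dtl, Zbtb43 and Hmgb2 (0.997 each). Those nearest to H2afz were Pianp, 1110004E09Rik (0.998 each) and E330009J07Rik (0.997). The nearest to H2afx were Cmas (0.997), Gm13225 and Snrpn (0.996 each), to H1f0 Meis1, BC034090 (0.997 each) and Klhl9 (0.995), and to H2afy2 Zfp408, Mthfd2l (0.995 each) and Adgrg6 (0.994). H3f3a was nearest to Irak3 (0.997), Neil3 and Def6 (0.994 each). H2afy (Pcdh1, 0.983, and Micu3 and 5730559C18Rik, 0.98 each) and H3f3b (Prdm4, 0.961, Dlg3, 0.96, and Idi1, 0.959) had no neighbour as close.

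Other genes of these pathways were taken from 7 lists of 56 genes, of which 53 were tested. At day 3 against MEF, 12 were called higher (14.6% of all genes were) and 3 lower (14.5% of all genes), and DESeq2 called 7 higher and 3 lower. Of 4 genes of CENP-A loading, 3 were called higher, among them Hjurp, the CENP-A chaperone, from 100 to 304 mean CPM (log2 fold change 1.6, SE 0.04, adjusted p = 1.2e-13 in edgeR), and Oip5, which acts in CENP-A loading (1.57, adjusted p = 1.9e-10). The centromeric H3 variant Cenpa (1.35, adjusted p = 2.5e-13 in edgeR) and the linker variant H1fx (1.36, adjusted p = 9.5e-10) were called higher too. Hist1h1c, the gene of the linker histone H1.2, fell from 122 and 125 CPM in MEF to 31.2 and 29.7 at day 3 (log2 fold change -2.02, SE 0.06, adjusted p = 5.3e-13 in edgeR). Hist3h2a, an H2A gene, fell from a mean of 13.8 to 5.52 CPM (-1.32, adjusted p = 8.6e-08 in edgeR), and Hist1h1d went from 1.05 to 0.328 CPM. Canonical histone transcripts mostly lack a poly(A) tail, so a poly(A) library sees only the part that has one.

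At day 6 against day 3, 3 of the 53 were called higher (9.26% of all genes) and 1 lower (10.2%). Nasp, which carries H3 and H4 and also linker histones, rose 2.39-fold (log2 fold change 1.25, SE 0.03, adjusted p = 6.4e-13 in edgeR), and Hist1h1c fell again, to 9.26 and 7.54 CPM (-1.86, SE 0.08, adjusted p = 5.9e-11). The other 2, Hist3h2ba and Hist1h1b, lay under 1 CPM on average. At day 9 against day 6, 1 was called higher (5.18%), Hist3h2ba, at a mean of 1.78 CPM, and none lower (2.68%) in edgeR or DESeq2, although 11 passed the test downward (13 at an unadjusted p under 0.05).

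In ESC against day 9, 5 of the 53 were called higher (18.6% of all genes) and 2 lower (14.3%), and DESeq2 called none lower. Hat1, which acetylates new H4, rose 2.26-fold (log2 fold change 1.18, SE 0.03, adjusted p = 3.2e-13 in edgeR) and Hist1h1c 2.18-fold (1.12, SE 0.07, adjusted p = 3.7e-09), while Dnajc9, an H3-H4 co-chaperone, fell 2.09-fold (-1.06, SE 0.05, adjusted p = 2.2e-10). The other gene called lower, Hist3h2ba, had a mean of 0.72 CPM in ESC. Against MEF, ESC had 21 called higher (25.5%) and 3 lower (20.6%), and day 9 had 19 higher (24.1%) and 2 lower (19.8%). Nasp was at 61.7 and 59.8 CPM in MEF, 132 and 127 at day 3, 314 and 306 at day 6, 374 and 385 at day 9, and 684 and 677 in ESC, with no overlap between stages. That is 11.2-fold from MEF to ESC (log2 fold change 3.49, SE 0.04, adjusted p = 2e-17 in edgeR). Hist1h1c was lower in ESC than in MEF (log2 fold change -2.07, SE 0.06, adjusted p = 2.1e-13 in edgeR). Ubn1, a subunit of the HIRA complex, was also lower (-1, SE 0.04, adjusted p = 3.3e-11 in edgeR), and so was Hist3h2a (-1.21, adjusted p = 1.4e-07). At day 9 Hist1h1c lay below MEF as well (log2 fold change -3.2, SE 0.06, adjusted p = 5.2e-15 in edgeR). Other genes named by the rule were near 0: Hist1h2aa reached 1.23 CPM in ESC, and Hist1h1a 1.24 CPM in ESC and 0.348 at day 9. Among the 12 genes of H2A.Z exchange none was called in any of the 4 successive steps in edgeR or DESeq2, although 9 passed the test upward at day 3 (also 9 at an unadjusted p under 0.05), and 5 were called higher in ESC than in MEF. Of 7 genes of H3.3 deposition, 1, Dek (chosen after its value was seen), was called at day 3 (1.14, adjusted p = 8.5e-13 in edgeR).

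Markers of other cells moved with these comparisons. The summed level of 13 fibroblast genes was 57100 and 55400 CPM in MEF, 4970 and 5010 at day 3, 352 and 335 at day 6, 134 and 145 at day 9, and 5170 and 5350 in ESC. Lum was at 0 at day 9 and no fibroblast gene was at 0 in ESC, and 12 of the 13 were called higher in ESC than at day 9 (18.6% of all genes). The 8 pluripotency genes summed to 2.17 CPM in MEF, where Gdf3 was at 0, and to 6.48, 120, 324 and 3770 CPM at days 3, 6 and 9 and in ESC. The 8 epithelial genes summed to 18.3, 16.6, 245, 1220 and 572 CPM as means in the same order. At day 3 against MEF, 2 of them were called higher (14.6% of all genes) and 3 lower (14.5%). Cdh1 (0.37 to 9.49 mean CPM) and Epcam (0.196 to 0.593) rose, and Krt18 (8.21 to 2.77), Krt14 (2.03 to 0) and Cldn4 (1.36 to 0.494) fell. In the same order of stages, 4 endothelial genes summed to 4.99, 131, 131, 78 and 107 CPM. The sums of 4 leukocyte genes were 6.34, 19.4, 5.17, 7.79 and 77.4 CPM. Tek made most of the endothelial sum at day 3 (2.33 to 121 mean CPM from MEF), and was at 110 and 107 CPM at day 6 and 67.7 and 68.9 at day 9. Cdh5 (0.138 to 7.54) and Pecam1 (0.381 to 0.925) were also called higher at day 3, and Kdr did not pass (adjusted p = 0.31 in edgeR). The endothelial sum in ESC was mostly Pecam1, which was called higher than at day 9 (1.57 to 99 CPM), while Tek (68.3 to 7.29), Kdr (4.68 to 0.822) and Cdh5 (3.39 to 0.1) were called lower. The leukocyte sum in ESC was mostly Lyz2 (49.6 and 50.6 CPM) and Cd68 (25.6 and 25.4). Cd52 was at 0.854 and 1.09 CPM in ESC, and Ptprc at 0.795 and 0.881, beside 0.85 and 1.01 in MEF. All 4 were called higher in ESC than at day 9 (18.6% of all genes). Krt14 was at 0 at day 3. In bulk RNA, fewer cells of a type and less RNA per cell cannot be told apart. The part of feeder cells in the ESC values was not tested, including those of H2afy and its transcripts, H2afy2, H1f0 and Hist1h1c.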

How the data were processed

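The authors deposited 1 table per library holding, for each transcript, the estimated counts and the TPM, made with Salmon 0.8.2 on mm10 per the submitters' processing notes; the estimated counts are fractional and unscaled, and TPM is scaled per length and per library. The deposited effective length of each transcript was identical in all tables. Libraries were made with a stranded poly(A) kit and read as single ends, per the labels' protocols, which give a single batch label. Groups and replicate numbers came from the sample titles.

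Estimated counts of 109617 transcripts were summed per gene and rounded. Genes were filtered with filterByExpr (minimum count 10, minimum total 15), scaled with TMM and tested in edgeR 4.0.16 under R 4.3.3 (quasi-likelihood) over all 10 libraries. SE was derived as the size of the log2 fold change divided by the root of its F statistic. Ratios and shares are given as descriptions, with no test. Estimated reads total 29585876 to 38275024 per library, with a common biological coefficient of variation of 3.75%. Replicates differed by more than counting noise (chi-square per degree of freedom 2.91 to 5.43).

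The 10 genes and all lists were chosen with earlier results of these data known. Pathway genes were named by rule: in each comparison up to 4 with the largest rise and 4 with the largest fall among those called without overlap of libraries (1 such gene is not reported here); like genes were the 3 protein-coding genes with the highest r of log2 CPM (prior count 2) at 20 CPM or more in a group. Coordinates and exons come from GENCODE M21 (GRCm38), and promoters from RefSeq. Near copies were found with blastn 2.17.0 (at least 95% identity over 100 bases). Alternatives used DESeq2 1.42.0 and limma 3.58.1. Tests were tested on simulated data.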

Additional observations from a re-analysis of the deposited data

How the results depend on the processing

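Of 1140 recomputed log2 fold changes of the 10 genes (60 values under 19 alternatives), 0 of the called ones reversed, 13 dropped under 2-fold and 3 rose past it. Scaling by library size without TMM shifts the median of all genes from 0.08 to 0.29 at day 3, from 0.1 to 0.44 for ESC against MEF and from 0.19 to 0.48 for day 9 against MEF, and it gave 4 genes called higher at day 3 in place of 2. With limma on log2(TPM + 1) and on log2(TPM + 0.1), 1 gene in place of 3 was called lower in ESC against day 9. With no fold change minimum the counts became 5 higher and 2 lower at day 3, 7 higher at day 6 against day 3, 3 higher and 2 lower at day 9 against day 6, 2 higher and 7 lower in ESC against day 9, 3 lower in ESC against MEF and 2 lower at day 9 against MEF. DESeq2 and fits to only the groups compared put H2afy (0.89 and 0.9) and Asf1a (0.91 and 0.91) under 2-fold at day 9 against MEF, as did limma (H2afy 0.93 and 0.94, Asf1a 0.82 and 0.96), and DESeq2 put H2afy2 in ESC against day 9 at the limit (-1). Adding the reads of near copies, an alternative chosen after seeing the data, changed no call.

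In estimated reads in place of TPM the ratio of H3f3a to H3f3b was 0.449, 1.08, 1.02, 0.764 and 0.614 from MEF through days 3, 6 and 9 to ESC, and that of H2afy to H2afy2 was 1.71, 1.51, 2.12, 2.83 and 2.75. Over protein-coding transcripts only, chosen after seeing the data, they were 1.61, 3.17, 3.1, 2.35 and 2.12, and 1.24, 1.09, 1.52, 2.08 and 1.94.

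Leaving out each library in turn changed 0 calls among 600 values; 1 group then has a single library, assumed to vary like the others. Same-numbered libraries did not deviate together (mean correlation 1e-04, from -0.02 to 0.022 over 10 pairs), so the number was not taken as a pairing. A replicate block changed 0 calls, with 2 genes called higher at day 3, and moved H2afy at day 3 from an adjusted p of 0.035 to 0.052 and H3f3b at day 9 against MEF from 0.04 to 0.051 in edgeR. Depth limits none of the 10 genes, each with at least 445 reads; the error of assigning reads among transcripts and copies is not in the files.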
